A study of Mus musculus with 2 samples.

Results

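Saa3, Hp and Lrg1, 3 genes of the acute-phase response, were followed across the cell types of the adult mouse lung in cells sorted from a GFI1 KO and a GFI1 WT animal. They are 3 of the 33696 genes counted. They were chosen by their measured values in these same data, as genes whose unique molecular identifiers (UMIs, each standing for 1 captured RNA molecule) were higher in myeloid cells under the KO label. The differences between the labels given below for the 3 genes, and their levels across cell types, are therefore descriptions with no test.

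GFI1 is a zinc finger repressor of transcription that neutrophil development requires. The KO animals lacked GFI1 in the germline, so that each cell type of the body carried the deletion, while the WT animals had an intact gene, both on a C57BL6/J background and adult. The library names of both carry the word ctrl, and no treatment is labelled. Lungs were dissociated with enzymes, live cells were sorted, and 3′ RNA libraries were made on the 10x platform together with 18 antibody tags. Each label had 1 library, titled as mouse 1 in both, so genotype, animal and library cannot be told apart and no p-value or standard error could be given. The intervals below are exact 95% intervals, Poisson for levels, binomial for shares of cells and conditional binomial for ratios, and they cover counting error only. Where no cell or UMI was counted, the limit given is the share or level that 3 counts would make.

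After filters, the KO library held 10495 cells with a median of 11076 UMIs and the WT library 19342 cells with a median of 6217 UMIs. The barcodes of both libraries had 74 sequences in common. Gfi1 itself was counted at 3.62 CPM (340 UMIs) in the library labelled KO and 3.48 CPM (470 UMIs) in the other, where CPM is UMIs of a gene per 1000000 UMIs of the genes used, so its RNA level did not check the labels. Cells were clustered without Saa3, Hp, Lrg1 and the other acute-phase genes, and clusters were named from marker lists. A cluster of 2317 KO and 34 WT cells was led by Ly6a2, Lcn2, Fcnb, Prtn3, Vcan, F13a1, Dmkn, Abca13, Mmp8 and Elane. It had all 8 classical monocyte markers raised, against 7 of 8 in the cluster called classical monocyte-like. More immature granulocyte markers than classical monocyte markers were among its leading genes, and it is called the granule-gene cluster here. Mature neutrophil-like cells were 1429 under the WT label (7.39% of cells) and 8 under the KO label (0.0762%).

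Acute-phase proteins are secreted proteins whose blood level changes in inflammation. Most are made by hepatocytes, where interleukins of the IL-1 and IL-6 families act through NF-κB, STAT3 and C/EBP factors to raise their transcription. Saa3 encodes serum amyloid A3, a small apolipoprotein made mainly outside the liver, among others by activated macrophages. Hp encodes haptoglobin, which captures free haemoglobin and which neutrophils also store in their granules. Lrg1 encodes leucine-rich α2-glycoprotein 1, a secreted protein of liver, neutrophils and activated endothelium that modifies signalling by transforming growth factor β through the co-receptor endoglin.

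The promoters of Saa3 and Lrg1, the genes with the widest gap between the libraries in monocytes, are shown. The promoter set used had no entry for Hp. The 250 bases before the start site were taken from RefSeq on build GRCm38.p6, whereas the counts were made on GRCm39. The Saa3 promoter lies at chr7:46715677-46715926 on the minus strand and the Lrg1 promoter at chr17:56121947-56122196 on the minus strand. Capitals mark matches to TTGCNNAA (C/EBP), GGANTTTCC (NF-κB), TTCNNNGAA (STAT), AATCNNNGC (GFI1), TATANA (TATA box) or AGGAAG (ETS factors such as PU.1), searched on both strands with a choice of letters made after the sequences had been seen.
Saa3: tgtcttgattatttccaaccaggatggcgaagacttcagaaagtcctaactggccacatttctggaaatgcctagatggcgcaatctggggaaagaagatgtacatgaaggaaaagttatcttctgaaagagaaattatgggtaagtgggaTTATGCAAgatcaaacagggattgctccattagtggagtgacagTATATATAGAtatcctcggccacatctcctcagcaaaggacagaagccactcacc
Lrg1: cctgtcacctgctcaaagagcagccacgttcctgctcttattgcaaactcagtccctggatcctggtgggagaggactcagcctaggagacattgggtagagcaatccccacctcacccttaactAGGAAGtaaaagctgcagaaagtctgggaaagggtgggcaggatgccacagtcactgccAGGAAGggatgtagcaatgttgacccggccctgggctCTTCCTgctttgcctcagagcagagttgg

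The Saa3 promoter had 1 match to TTGCNNAA, on the minus strand with its first base at -99 from the start site, and 3 overlapping matches to TATANA from -55. The Lrg1 promoter had 3 matches to AGGAAG, at -125, -66 and -29, and none to the other 5 motifs. Among 32851 promoters of the same length, TTGCNNAA occurred in 9.56%, TATANA in 22.6%, AGGAAG in 29.5%, AATCNNNGC in 8.87%, TTCNNNGAA in 7.02% and GGANTTTCC in 1.07%. A match is a run of letters and not a bound site.

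Summed over all cells, each of the 3 genes was higher under the KO label. Saa3 reached 384 CPM (379.8 to 388) in KO cells against 1.95 CPM (1.72 to 2.20) in WT cells, 197 times as much (175 to 223). Hp reached 905 CPM (899 to 911) against 91.4 CPM (89.7 to 93.0), 9.91 times as much (9.72 to 10.1). Lrg1 reached 351 CPM (347 to 355) against 22.3 CPM (21.5 to 23.1), 15.7 times as much (15.2 to 16.3). The Saa3 gap was thus the widest of the 3. These sums mix cell types whose shares differed between the libraries, and without neutrophil, monocyte, macrophage, granule-gene, dendritic and unnamed clusters, a choice made after the data had been seen, the log2 ratios fell from 7.62, 3.31 and 3.98 to the values 4.01, 0.60 and 1.56.

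The cells that carried the RNA were different in the 2 libraries. In the KO library, classical monocyte-like cells and the granule-gene cluster together held 94.6% of the Saa3 UMIs, 90.8% of the Hp UMIs and 92.4% of the Lrg1 UMIs, in 45.7% of the cells. In the WT library the same pair held 8.37%, 11.9% and 0.431%, in 2.17% of the cells. Mature neutrophil-like cells held 50.7% of the WT Lrg1 UMIs and 40.7% of the WT Hp UMIs. Epithelial-like cells held a further 29.2% of the WT Hp UMIs, and interstitial macrophage-like cells held 61.6% of the few WT Saa3 UMIs, 162 of 263.

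**Figure D1:**
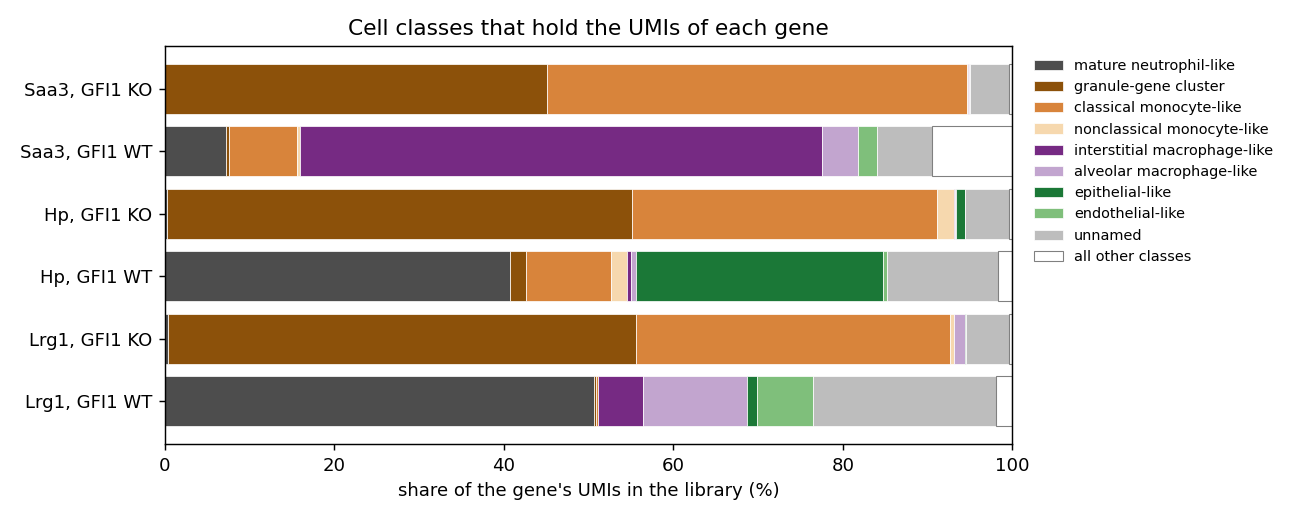
Horizontal bars give, for each gene and library, the percentage of that gene's UMIs that lay in each cell class (x axis, 0 to 100%). Classical monocyte-like cells and the granule-gene cluster fill over 90% of each KO bar, while mature neutrophil-like cells hold 40.7% of Hp and 50.7% of Lrg1 in the WT library.

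Lymphocytes were taken as the level that free RNA reaches in cells that do not make these proteins. In KO B-like cells (897 cells, median 3915 UMIs) Saa3 stood at 4.70 CPM (2.50 to 8.04), Hp at 12.3 CPM (8.51 to 17.2) and Lrg1 at 5.78 CPM (3.31 to 9.39). In WT B-like cells (2728 cells, median 4038 UMIs) the levels were 0.647 CPM for Saa3, 1.19 CPM for Hp and 0.432 CPM for Lrg1. No B-like cell held more than 2 UMIs of any of the 3 genes. Among the summed UMIs of the 3 genes, Saa3, Hp and Lrg1 made up 20.6%, 54.0% and 25.4% in KO B-like cells and 23.4%, 55.2% and 21.4% in the whole KO library. In WT B-like cells, with 21 such UMIs, the shares were 28.6%, 52.4% and 19.0%, against 1.68%, 79.0% and 19.3% in the whole WT library. The Saa3 shares thus did not match in the WT library, and the source of these few UMIs was not tested. B-like cells were the lowest of the KO lymphocytes where doublets were kept. KO T-like cells had 28 Saa3 UMIs, 34.6 CPM of Hp and 16.6 CPM of Lrg1, and without cells that Scrublet called doublets Hp was at 9.15 CPM and Lrg1 at 5.61 CPM. KO NK-like cells had 26.6 CPM of Saa3, 33.4 CPM of Hp and 8.85 CPM of Lrg1, with 20 of the 27 Saa3 UMIs and 13 of the 34 Hp UMIs in 1 cell called a doublet.

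**Figure D2:**
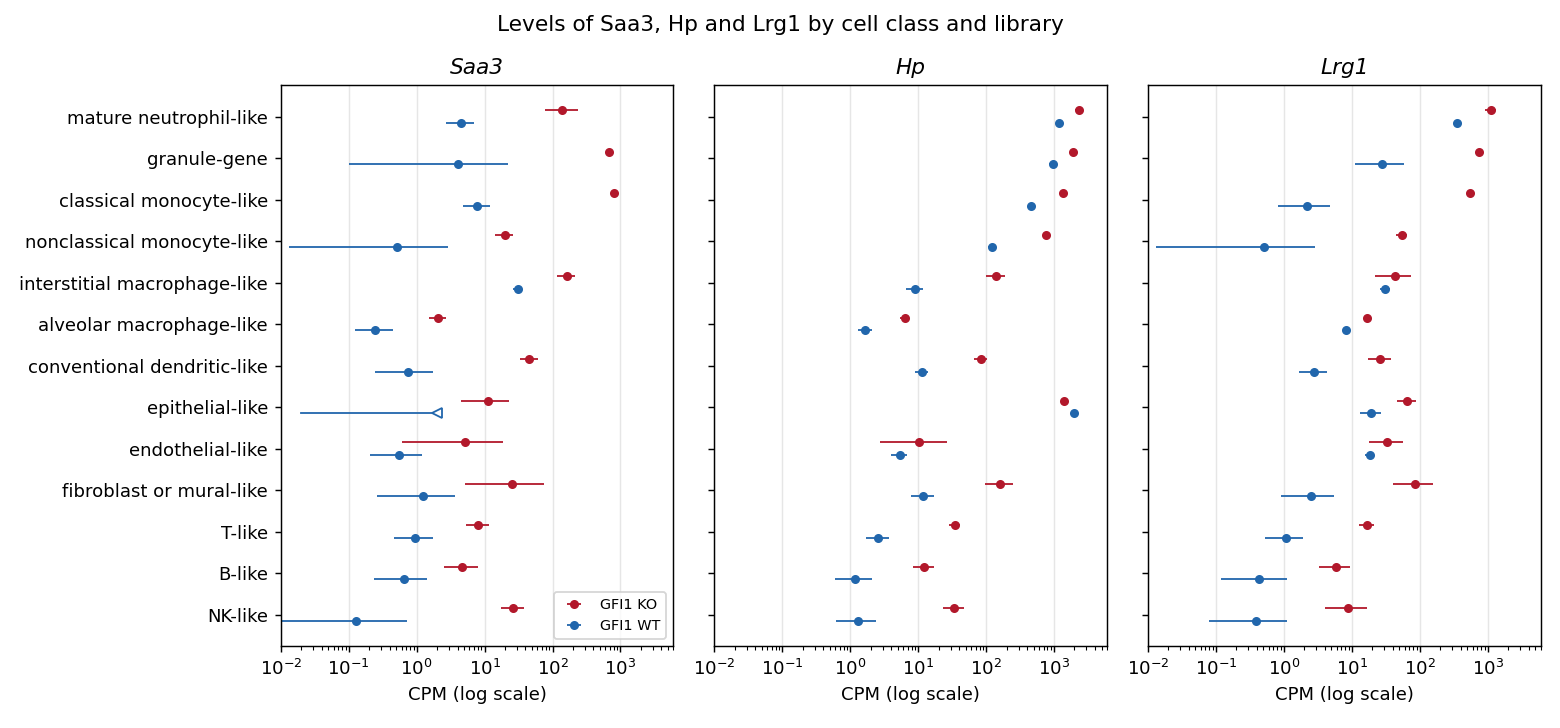
Points give the level of each gene (x axis, CPM, log scale) in 13 cell classes of the GFI1 KO and GFI1 WT libraries, with exact 95% Poisson intervals as bars. An open triangle marks the upper bound for a class with no UMI, and the KO points lie to the right of the WT points throughout except for Hp in epithelial-like cells.

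Classical monocyte-like cells, which enter tissues from the blood and mature there, numbered 2476 under the KO label and 386 under the WT label. Their Saa3 level was 799 CPM (788 to 811) in KO cells against 7.76 CPM (4.80 to 11.9) in WT cells, 103 times as high (67.4 to 167). Their Lrg1 level was 548 CPM (538 to 557) against 2.22 CPM (0.813 to 4.82), 247 times as high (114 to 674), which rests on 6 WT UMIs. With cells classed by their markers and no clusters, the log2 ratio of Lrg1 fell from 7.95 to 6.61. Hp differed less, at 1373 CPM (1357 to 1388) against 457 CPM (432 to 483), a log2 ratio of 1.59 with an interval of 2.84 to 3.18 times. WT monocytes carried Hp at 385 times the level of WT B-like cells (214 to 773), Saa3 at 4.68 to 36.3 times by the interval and Lrg1 at 5.13 times (1.22 to 24.7). Their 8 markers were all detected in both libraries, 3 higher and 5 lower in KO cells. Ly6c2, which defines these monocytes, was at 463 CPM in KO cells against 1306 CPM in WT cells, and Ccr2, the chemokine receptor for their exit from marrow, at 887 against 549 CPM, so cells of this name also differed between the labels in their own markers. The part of this in the levels of Saa3, Hp and Lrg1 was not tested.

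The same cells differed in granule genes. The 10 immature granulocyte markers summed to 257 CPM in KO classical monocyte-like cells against 61.3 CPM in WT ones, nearly all of it Mmp8 (132 against 44.7 CPM) and Prtn3 (114 against 13.7 CPM). Another 5 of the 10 had no UMI in the WT cells, and in the KO cells each of these lay below 1.11 CPM, the level of 3 counts in the WT cells, so they give no direction. The 9 mature neutrophil markers summed to 911 CPM in the KO cells, with 2 at 0, and to 644 CPM in the WT cells, with 1 at 0. Of these 9, 5 were higher and 3 lower in the KO cells, and S100a8 was at 231 against 56.5 CPM. The median count of the CD11b tag, an integrin of myeloid cells, was 774.5 under the KO label and 496.5 under the WT label, and that of the Ly6G tag, a marker of neutrophils, was 1 in both. Tag counts were not scaled by cell or library. The median tag count of CD45, the leukocyte antigen, was also higher in these KO cells, at 1064.5 against 653. The part of tag yield in the CD11b gap was not tested. The part of these differences in the levels of Saa3, Hp and Lrg1 was not tested.

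In the granule-gene cluster the KO cells had 671 CPM of Saa3 (661 to 682), 1926 CPM of Hp (1908 to 1943) and 753 CPM of Lrg1 (743 to 764). The 34 WT cells had 1 Saa3 UMI, 237 Hp UMIs (954 CPM, 837 to 1084) and 7 Lrg1 UMIs (28.2 CPM, 11.3 to 58.1). Compared with KO classical monocyte-like cells, the KO cells of this cluster had 0.840 times the Saa3 level (0.822 to 0.858), 1.40 times the Hp level (1.38 to 1.42) and 1.38 times the Lrg1 level (1.34 to 1.41). Summed over cells, Saa3 was thus lower and both other genes higher in the cells with granule genes. A Saa3 UMI was found in 56.5% of KO granule-gene cells (54.4 to 58.5) against 50.9% of KO classical monocyte-like cells (48.9 to 52.9). After each cell had been thinned to the same number of UMIs, the intervals overlapped, at 33.3% (31.4 to 35.3) and 34.8% (33.0 to 36.8). The lower Saa3 level therefore holds for the sums only. In the KO granule-gene cells, classical monocyte markers summed to 9745 CPM, immature granulocyte markers to 843 CPM and mature neutrophil markers to 9999 CPM. None of these markers was at 0. Mmp8 (481 CPM) and Prtn3 (287 CPM) made up most of the immature granulocyte sum, while Mpo was at 2.68 CPM, Ngp at 1.73 CPM and Camp at 0.0826 CPM. S100a8 (5285 CPM) and S100a9 (3915 CPM) made up most of the mature neutrophil sum, while Retnlg was at 2.56 CPM and Mmp9 at 2.31 CPM. Of these 9 markers, 4 were higher and 5 lower than in the 34 WT cells. Ly6g, which defines neutrophils, was among the 4, with 10 UMIs in the 2317 KO cells (0.413 CPM) and 0 in the WT cells. There 3 counts would make 12.1 CPM, so Ly6g gives no direction. Ly6c2 was at 1018 CPM, Vcan at 968 CPM and F13a1 at 1160 CPM in these KO cells, against 463, 417 and 460 CPM in KO classical monocyte-like cells. Fn1 and Ccr2 were also higher in the granule-gene cluster, while Csf1r, Ms4a4c and Plac8 were lower. Which KO cells correspond to the WT classical monocyte-like cells was not tested.

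Mature neutrophil-like cells were the main Hp and Lrg1 cells of the WT myeloid compartment. There Hp stood at 1183 CPM (1150 to 1216), 2.59 times its level in WT classical monocyte-like cells (2.43 to 2.76), and Lrg1 at 359 CPM (342 to 378), 162 times (74.4 to 443). Saa3 was at 4.47 CPM (2.69 to 6.98), with 19 UMIs in 7 of the 1429 cells, and was not distinguishable from WT classical monocyte-like cells at this depth (ratio 0.577, 0.293 to 1.13). The 8 KO cells had 140 CPM of Saa3 from 14 UMIs, 13 of them in 1 cell, with 2292 CPM of Hp (2005 to 2609) and 1111 CPM of Lrg1 (914 to 1338). Their Ly6G tag median was 11 against 243 in WT neutrophils, and the granule gene Ngp was at 7526 against 40.3 CPM, so these few cells differed from the WT ones in granule genes and surface.

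Nonclassical monocyte-like cells, which patrol the vessel wall, were near equal in number, 391 KO and 357 WT, and near equal in depth, with medians of 5904 and 5759 UMIs. Hp was at 769.6 CPM (734 to 807) in KO cells against 122 CPM (107 to 139) in WT cells, 6.31 times as high (5.50 to 7.25). Lrg1 was at 54.3 CPM (45.1 to 64.8) from 123 UMIs in the KO cells, with 1 UMI in the WT cells, a ratio of 105 (18.5 to 4179). Classed by markers without clusters, nonclassical monocyte-like cells had Lrg1 at 134 against 10.9 CPM, and the log2 ratio went from 6.71 to 3.62. Saa3 had 45 UMIs in the KO cells (19.9 CPM, 14.5 to 26.6) and 1 in the WT cells. The KO levels of Saa3 and Lrg1 were 4.23 and 9.38 times those of KO B-like cells (2.24 to 8.54 and 5.55 to 16.9). Saa3 in KO NK-like cells, at 26.6 CPM, was not lower than in nonclassical monocyte-like cells, and most of it lay in the 1 doublet named above. The order within the KO monocytes was the same for the 3 genes, classical above nonclassical, but the step was 40.3-fold for Saa3 (30.1 to 55.2), 10.1-fold for Lrg1 (8.45 to 12.2) and 1.78-fold for Hp (1.70 to 1.87).

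Alveolar macrophage-like cells, the resident phagocytes of the air space, were numerous in both libraries (2319 KO and 3700 WT) and near equal in depth. Saa3 (2.04 CPM KO and 0.248 CPM WT) and Hp (6.36 and 1.64 CPM) lay at or near the level of B-like cells of the same library, below it in the KO library. Read as background, these levels give no difference between the labels. KO alveolar macrophage-like cells had a median of 13141 UMIs against 3915 in KO B-like cells, and the part of depth in comparisons with the B-like level was not tested. Lrg1 was at 16.6 CPM (15.1 to 18.2) in KO cells against 8.34 CPM (7.51 to 9.23) in WT cells, 1.99 times as high (1.73 to 2.29). This was above the B-like level in each library, by 2.87 times (1.75 to 5.06) and 19.3 times (7.48 to 71.3). The B-like level of Lrg1 was itself 13.4 times as high under the KO label (4.32 to 55.1). The part of free RNA in the ratio of 1.99 was not tested.

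Interstitial macrophage-like cells, which lie in the lung tissue around vessels and airways, were 27 under the KO label and 452 under the WT label. WT Saa3 came from 5 of the 452 cells, in which 125, 29, 4, 3 and 1 UMIs were counted, and Scrublet called none of the 5 a doublet. The cell with 125 Saa3 UMIs had 4 Hp and 5 Lrg1 UMIs among 12768. Lrg1 by contrast was found in 17.9% of the WT cells, at 30.8 CPM (26.2 to 36.0). In the KO cells Saa3 had 45 UMIs in 4 of 27 cells, 18 of them in a cell that Scrublet called a doublet. The median CD11c tag was 145 against 1096.5 in the WT cells, and it was 883.5 in WT alveolar macrophage-like cells. The median CD11b tag was 470 in the KO cells and 64 in the WT cells, against 4 in WT alveolar macrophage-like cells. The class was named from RNA markers, and whether its WT cells include alveolar macrophages was not tested. All 9 interstitial macrophage markers were higher in the KO cells, summing to 38504 against 13649 CPM, so the cells under this name differed between the labels in more than the 3 genes, and the part of that in their levels was not tested.

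Among endothelial-like cells, where Lrg1 is known from vessel growth, it was at 18.4 CPM (15.9 to 21.1) in 2120 WT cells, 42.6 times the WT B-like level (16.4 to 158). In 107 KO cells it was at 33.2 CPM (17.7 to 56.8) from 13 UMIs, 5.74 times the KO B-like level (2.54 to 12.7), and the ratio of KO to WT, 1.81 (0.946 to 3.16), did not separate the labels at this depth. Hp was at 5.32 CPM in the WT cells, 4.48 times the B-like level (2.32 to 9.47), and at 10.2 CPM from 4 UMIs in the KO cells. Without cells called doublets, WT Hp was at 2.97 CPM in endothelial-like cells and at 1.09 CPM in B-like cells. Within the WT library Lrg1 was 16.8 CPM (14.2 to 19.7) in the larger endothelial-like cluster and 27.4 CPM (19.9 to 36.8) in the smaller one, 1.64 times as high (1.14 to 2.30). A further cluster of 236 WT and 4 KO cells had endothelial, fibroblast and mesothelial markers raised, among them 5 venous endothelial ones. Scrublet called 53.3% of its 240 cells doublets. In its WT cells Lrg1 reached 68.4 CPM (59.0 to 78.7), with 42 of 192 UMIs in 1 cell, and 192 CPM without the doublets. Saa3 had 6 UMIs in all WT endothelial-like cells and 2 in the KO ones.

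Taken as a whole class, epithelial-like cells were the exception for Hp, which was lower under the KO label, at 1395 CPM (1304 to 1491) against 1962 CPM (1899 to 2027), a ratio of 0.711 (0.660 to 0.766). At a Leiden resolution of 0.5 the class had 38 KO and 122 WT cells, and Hp was at 2157 against 2001 CPM, so that the direction turned. The class was mixed, and its makeup differed between the libraries. Cells in which Scgb1a1, the secretoglobin of airway club cells, made up at least 10% of UMIs numbered 11 of 154 under the KO label and 56 of 145 under the WT label, and 1 KO and 2 WT cells lay between 5% and 20%. These cells held 89.3% of the KO and 97.2% of the WT Hp UMIs of the class. Within them Hp was 3061 CPM (2850 to 3284) in the KO library and 2599 CPM (2514 to 2687) in the WT library, a ratio of 1.18 (1.09 to 1.27). Hp UMIs per cell ranged from 1 to 215 with a median of 67 in the 11 KO cells, and from 0 to 384 with a median of 35.5 in the 56 WT cells, so the KO range lay within the WT range.

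The other 143 KO cells of the class went against its name. Their median CD11b tag was 377 against 2 in the other 89 WT cells, and Ptprc, the leukocyte antigen CD45, was found in 108 of them. Lrg1 there was 103 CPM in the KO cells against 20.5 CPM, with 38 and 10 UMIs, and the 7 Saa3 UMIs of the class all lay in these KO cells. The Saa3 and Lrg1 values of KO epithelial-like cells are therefore not values of epithelium alone. No Saa3 UMI was counted in 145 WT epithelial-like cells, which allows a share of up to 2.07% of cells with a UMI.

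Cells of 1 class were far from uniform in Saa3 and more even in Hp. Of the 2476 KO classical monocyte-like cells, 50.9% had a Saa3 UMI (48.9 to 52.9), the median was 1, the upper quartile 8 and the highest cell 175. The 247 cells with the most Saa3 held 59.7% of its UMIs. Hp was found in 97.8% of the same cells, with quartiles of 7, 11 and 17 UMIs, and the top 247 cells held 23.1% of its UMIs. Lrg1 was found in 80.4%, with quartiles of 1, 4 and 8 UMIs. In the KO granule-gene cluster the picture was alike, with Saa3 in 56.5% of cells, Hp in 99.9% and Lrg1 in 94.2%.

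After each cell had been thinned to 1500 UMIs, which left out 13 KO and 0 WT classical monocyte-like cells, 34.8% of the KO cells had Saa3 (33.0 to 36.8), 82.0% Hp (80.4 to 83.5) and 45.9% Lrg1 (43.9 to 47.9). In the WT cells the shares were 0.777% for Saa3 (0.161 to 2.25), 38.1% for Hp (33.2 to 43.1) and 0% for Lrg1 (0 of 386 cells, which allows a share of up to 0.777%). Without thinning, the WT shares were 2.07%, 72.8% and 1.55%. KO B-like cells, as background, had 0.697%, 1.97% and 0.697% after thinning. All 3 genes were found together in 17.5% of thinned KO classical monocyte-like cells (16.0 to 19.1) and in 21.3% of thinned KO granule-gene cells (19.6 to 23.0), against 0 of 386 and 0 of 34 WT cells, which allows shares of up to 0.777% and 8.82%.

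**Figure D3:**
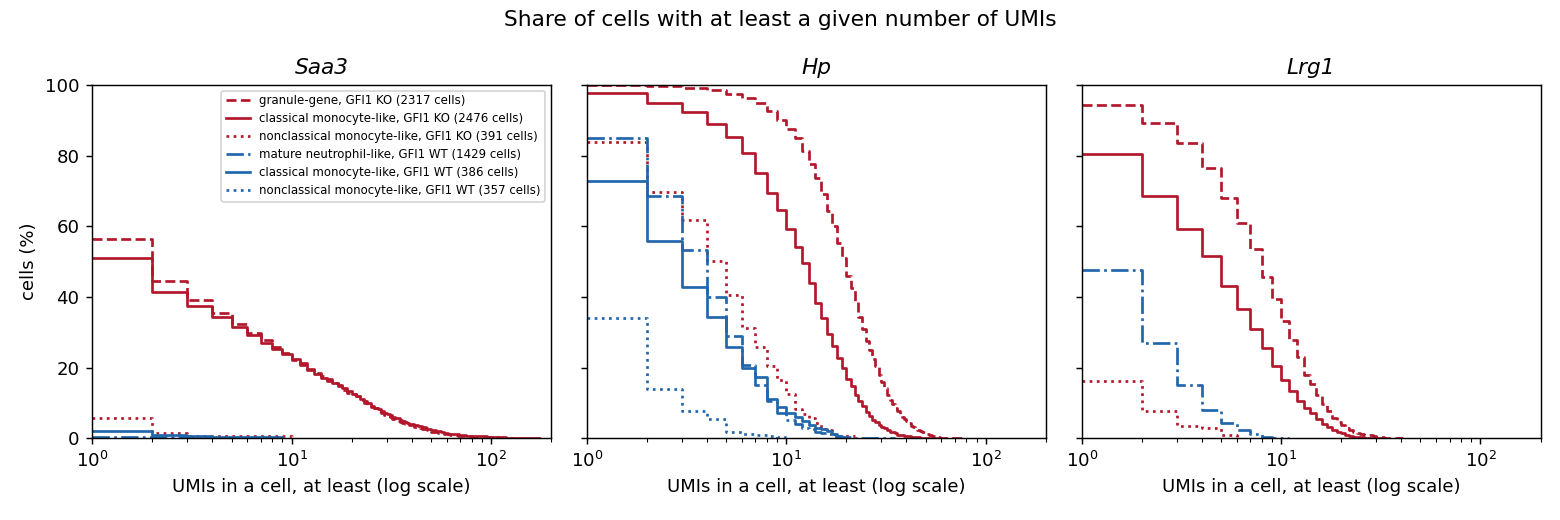
Lines give the percentage of cells (y axis) with at least the number of UMIs of the gene on the x axis (log scale, cells not thinned), for 6 groups of myeloid cells with the KO library in red and the WT library in blue. Saa3 falls off slowly from 50.9% of KO classical monocyte-like cells to a maximum of 175 UMIs, whereas Hp stays near 97.8% and then drops within a narrow range.

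Cells with more Saa3 also differed in other genes, described here over KO classical monocyte-like cells in groups set after the data had been seen. From the 1215 cells with no Saa3 UMI to the 294 cells with over 20, the Lrg1 level went from 417 to 732 CPM and the Hp level from 1267 to 1615 CPM. Lcn2, which encodes the iron-trapping protein lipocalin 2, went from 88.4 to 256 CPM. H2-Ab1, a class II histocompatibility gene of antigen-presenting cells, went the other way, from 1106 to 265 CPM. The median depth went from 10499 to 12236 UMIs and the CD11b tag median from 699 to 969.5 over the same groups. On thinned cells, those with a Saa3 UMI had 700 CPM of Lrg1 and 353 CPM of H2-Ab1 (858 cells), and those without had 457 and 1016 CPM (1605 cells).

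In the granule-gene cluster the same grouping gave a rise of Lrg1 from 634 to 960 CPM, while H2-Ab1 was low throughout, at 15.1 to 24.4 CPM. On thinned cells of this cluster the gap was smaller, with Lrg1 at 716 CPM (682 to 751) without and 844 CPM (792 to 898) with a Saa3 UMI, and the intervals of Lcn2 overlapped, at 796 CPM (759.8 to 833) and 851 CPM (799 to 906). Across single thinned KO classical monocyte-like cells, the Pearson correlation of log2(UMIs + 1) was 0.17 for Saa3 with Lrg1, 0.12 for Saa3 with Hp and 0.16 for Hp with Lrg1. These were weak over 2463 cells that share 1 library, and in counts this sparse they are no finding.

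**Figure D4:**
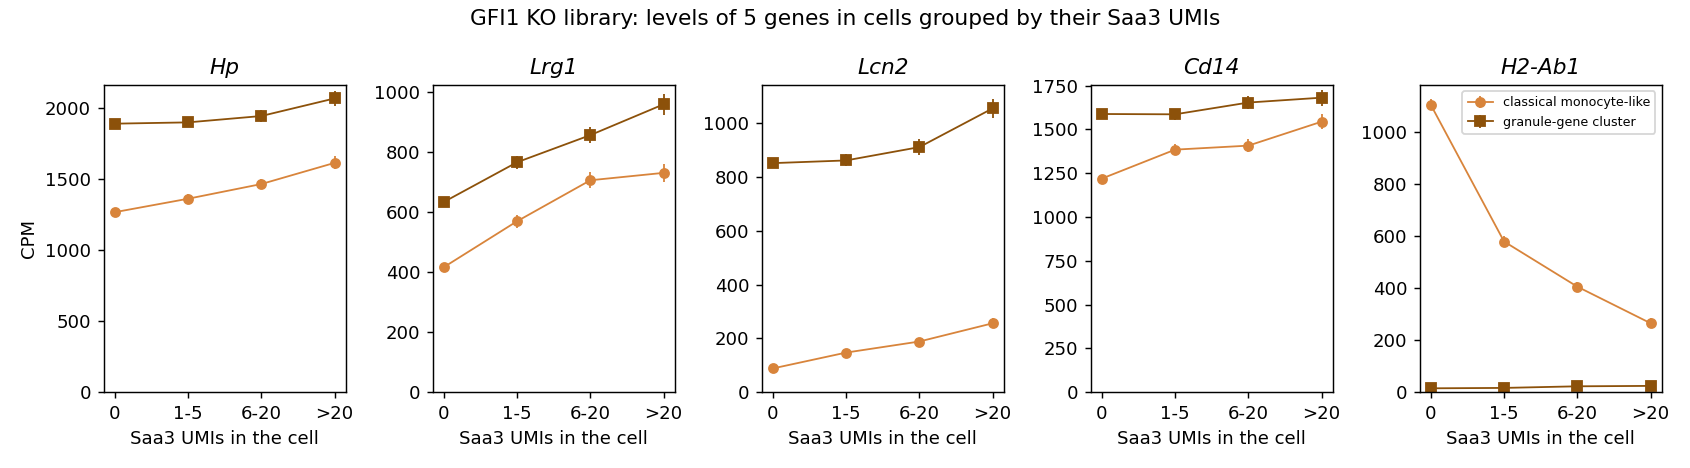
Each panel gives the level of 1 gene (y axis, CPM, from 0) in KO cells grouped by their Saa3 UMIs (x axis: 0, 1 to 5, 6 to 20, over 20), for classical monocyte-like cells and the granule-gene cluster, with exact 95% Poisson intervals. Cells are not thinned here, and in classical monocyte-like cells Lrg1 and Lcn2 are higher and H2-Ab1 is lower in the groups with more Saa3.

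Genes with the most similar pattern were found by the Pearson correlation of log2(CPM + 1) over 22 groups of class and library with at least 50 cells, among 12827 genes. The 5 most like Saa3 were Prtn3 (r = 0.88), Nxpe5 (0.83), Wfdc18 (0.82), Esd (0.81) and Fcnb (0.81). Prtn3 encodes proteinase 3 and Fcnb ficolin B, both products of granulocyte precursors. The 5 most like Lrg1 were Lcn2 (0.81), Rhov (0.79), Saa3 (0.75), Tarm1 (0.75) and Mmp8 (0.74), of which Lcn2 and Mmp8 encode proteins of neutrophil granules. The 5 most like Hp were Catip (0.89), Mapk13 (0.88), Mefv (0.88), F5 (0.87) and Vnn3 (0.87), where F5 encodes coagulation factor V and Mefv pyrin. The groups of 1 class share markers and those of 1 library share free RNA. Saa3 and Lrg1 were also both chosen as higher in KO myeloid cells, so their likeness to each other is no support for a link. The highest Saa3 levels lay in KO classical monocyte-like cells (799 CPM) and the KO granule-gene cluster (671 CPM), which weigh most in its r values. All these values are therefore descriptions.

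Other acute-phase genes were looked at through a list of 24, of which 4 had at least 30 UMIs in classical monocyte-like cells. Lcn2 was at 143 CPM in KO cells against 5.17 CPM in WT cells, 27.6 times as high (16.5 to 50.6). Lbp, which encodes the protein that passes lipopolysaccharide to CD14, was at 12.1 and 2.95 CPM, a ratio of 4.09 (2.05 to 9.58). The other 2, Cd14 and Il1rn, had ratios of 1.63 (1.56 to 1.70) and 0.502 (0.424 to 0.598). So 2 of 4 were at least 2-fold higher and 0 were at least 2-fold lower, while 5.11% of the 10591 genes with as many UMIs were at least 2-fold higher and 3.64% at least 2-fold lower. Neither Lcn2 nor Lbp had 30 UMIs in the WT cells alone, so both passed the filter through the KO cells, where they were high. A count of 4 genes does not set the list apart. The 3 genes themselves were all at least 2-fold higher, which the way they were chosen fixes.

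Several acute-phase genes of the liver were close to absent. Saa1, the liver relative of Saa3, had 8 UMIs in the whole KO library and 6 in the WT library, Saa2 had 0 and 1, and Crp had 5 and 2. No UMI of Saa4, Apcs, Fga, Fgb or Fgg was counted in either library. Lcn2, over all cells, was at 304 CPM in the KO library and 29.9 CPM in the WT one, 10.1 times as high (9.81 to 10.5). Other genes of the list, named after their values were seen, went the other way over all cells, among them Cp (396 against 2360 UMIs, ratio 0.241), Serpina3n (28 against 462 UMIs, ratio 0.0871), Ptx3 (0 against 79 UMIs), Steap4 (ratio 0.337) and Il1rn (ratio 0.634). These sums mix cell types whose shares differed. Endothelial-like cells were 1.02% of KO and 11.0% of WT cells, and fibroblast or mural-like cells 0.210% and 1.86%. The part of cell shares in these ratios was not tested. In the granule-gene cluster Lcn2 was at 891 CPM in the KO cells and had 5 UMIs in the WT cells, and in mature neutrophil-like WT cells it was at 679 CPM.

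Receptors and binding partners of the 3 proteins were a list of 14, of which 13 had enough UMIs in classical monocyte-like cells. Fpr1, a formyl peptide receptor, was higher, at 8.37 against 3.32 CPM (ratio 2.52, from 187 and 9 UMIs). Cd36, a scavenger receptor, was lower, at 20.6 against 146 CPM (ratio 0.141, 0.123 to 0.162). The other 11 lay within 2-fold, among them Fpr2, which binds serum amyloid A (1.51, 1.21 to 1.90), Tlr4 (1.97, 1.57 to 2.51), Tlr2 (0.914, 0.835 to 1.00) and Eng, the endoglin that Lrg1 binds (1.43, 0.869 to 2.50). The median log2 ratio of the 13 was 0.28, against 0.03 over all genes. So 1 of 13 was at least 2-fold higher and 1 at least 2-fold lower, against 5.11% and 3.64% over all genes. Counts this small do not set the list apart.

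Cytokines, their receptors and the transcription factors that induce acute-phase genes were a list of 18, of which 17 had enough UMIs. Cebpe, a C/EBP factor of granulocyte development, was higher at 10.8 against 3.69 CPM (2.93, 1.57 to 6.20), and Il6 was lower at 18.5 against 67.2 CPM (0.276, 0.231 to 0.330). The other 15 lay within 2-fold. Thus 1 of 17 was at least 2-fold higher and 1 at least 2-fold lower, against 5.11% and 3.64% over all genes. These counts do not set the list apart either. Cebpb was at 3364 and 3327 CPM (interval of the ratio 0.989 to 1.03), Stat3 at 354 and 500 CPM (0.707, 0.668 to 0.750), and Socs3, a target and inhibitor of STAT3, at 173 and 142 CPM (1.22, 1.10 to 1.36). Il1b was at 4410.5 and 3192 CPM (1.38, 1.35 to 1.41). None of these genes had a 100-fold gap like Saa3 and Lrg1, which were chosen by their values in these data. The part of these genes in the levels of Saa3 and Lrg1 was not tested.

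**Figure D5:**
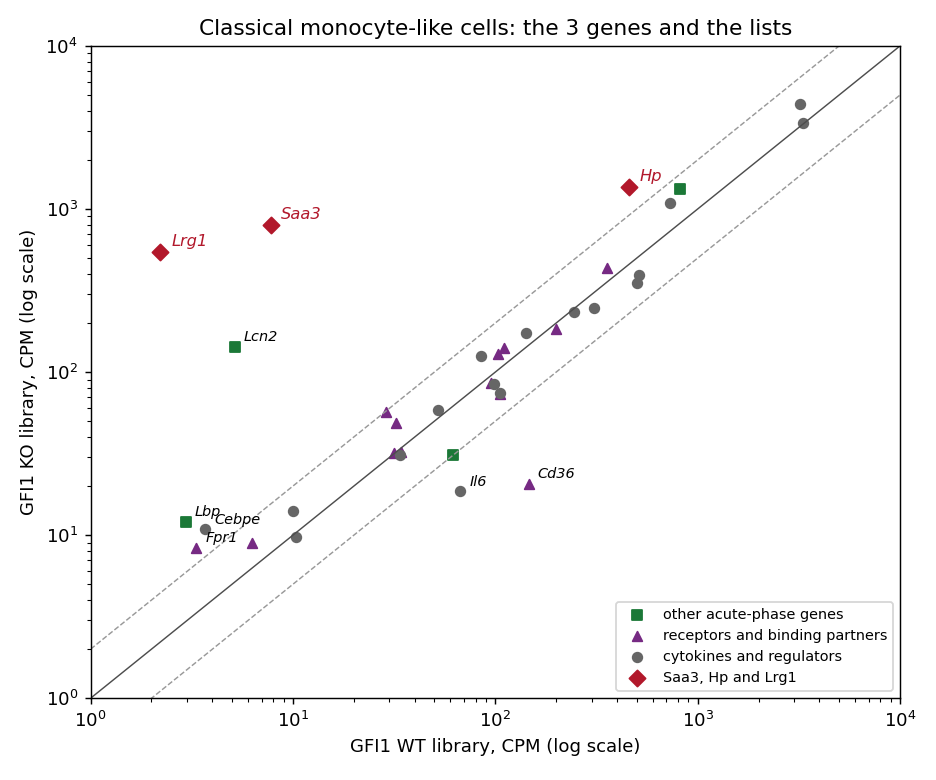
Each point is a gene in classical monocyte-like cells, with its level in the WT library on the x axis and in the KO library on the y axis (CPM, log scales), for Saa3, Hp and Lrg1 and for members of the 3 lists with at least 30 UMIs. The solid line marks equal levels and the dashed lines a 2-fold difference, and Saa3, Lrg1 and Lcn2 lie far above the upper line.

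In nonclassical monocyte-like cells, 3 acute-phase genes had enough UMIs and 0 moved 2-fold in either direction, with Cd14 the highest at 355 against 179 CPM (1.98, 1.74 to 2.25). Among 12 receptors Fpr1 (72.4 against 7.24 CPM) and Fpr2 (84.7 against 37.2 CPM) were higher, and Cd36 (428 against 1321 CPM) and Acvrl1 (7.06 against 14.5 CPM) lower. Among 15 inducers Il6 was lower, at 5.74 against 12.4 CPM. Over all genes there, 1.93% were at least 2-fold higher and 1.65% at least 2-fold lower. In alveolar macrophage-like cells Lcn2 (0.964 against 0.451 CPM) was higher, Hamp (0.270 against 0.608 CPM) and Eng (0.540 against 3.83 CPM) were lower, and the other 31 list genes with enough UMIs lay within 2-fold, against backgrounds of 0.415% higher and 4.02% lower. There Lrg1, with a ratio of 1.99, did not pass 2-fold, and Saa3 and Hp did so only at levels near those of B-like cells. Lcn2 did so at only 0.964 CPM, while it stood at 304 CPM over all KO cells, and it was not compared with its B-like level.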

How the data were processed

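The authors deposited raw UMI counts per gene and antibody tag for 1 library per genotype, made with Cell Ranger 9.0.1 on GRCm39 (mm39) according to the submitters' processing notes. Cells with at least 500 UMIs, at least 200 genes and at most 20% mitochondrial UMIs were kept, and 9626 mitochondrial, ribosomal and Gm-named genes were left out, after the study's methods. In scanpy 1.11.5, each cell's counts were brought to a total of 10000 and log-transformed, and each gene was standardised. The 2000 most variable genes, without Saa3, Hp, Lrg1, the acute-phase list, Gfi1 and Gfi1b, gave 50 principal components, 15 neighbours and 35 Leiden clusters at resolution 0.8. Clusters were named where at least 3 markers of a class were raised 1.5-fold no other lineage had 60% of its markers raised and the 10 leading genes held no more markers of another class. These cut-offs were set after seeing the data, and 11 clusters stayed unnamed. Scrublet calls (347 KO and 1126 WT cells) were kept in, and a cluster with at least 50% of them was not named. Levels are sums of counts per class and library, so deeper cells weigh more. A gene was called at 2-fold among genes with at least 30 UMIs over both libraries. The fold calls and intervals were tried only on simulated Poisson sums, the model that the intervals assume. The uneven spread of UMIs over cells was left out there, so how well the intervals hold in the real counts was not tested. The 3 genes and all lists were chosen with earlier results of these data known. Genes named beside Saa3, Hp and Lrg1 were list members past 2-fold or highest of their list, and the 5 most similar in pattern. Genes shown against Saa3 UMIs and those named within 2-fold, Cd14 and Il1rn included, were chosen after their values were seen. The alternatives were other denominators, filters, resolutions, clusterings and thinning. Protein sequences were not used here, and the promoter set had no entry for Hp.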

Additional observations from a re-analysis of the deposited data

Results flagged for a closer look

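Hp in epithelial-like cells as a whole class went the opposite way to Hp in 11 other classes whose interval lay above 1, with a ratio of KO to WT of 0.711, and the difference between classes was not tested because each label had 1 library. Among the 11 were T-, B- and NK-like cells, taken above as the level of free RNA, and alveolar macrophage-like cells, whose Hp lay near the B-like level. The ratio within cells rich in Scgb1a1 was 1.18 (1.09 to 1.27). In the other cells of the class Hp was at 251 CPM under the KO label and 209 CPM under the other, with an interval of the ratio from 0.899 to 1.61.

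A cluster of 259 KO and 405 WT cells led by cell cycle genes stayed unnamed and entered the sums over all cells but no comparison by class, yet held the 3 genes above the B-like level under the KO label. Saa3 was at 63.8 CPM (262 UMIs) against 0.461 CPM in the WT cells, Hp at 320.2 CPM (1315 UMIs) against 5.38 CPM, and Lrg1 at 82.1 CPM (337 UMIs) against 4.61 CPM. The cell types within this cluster were not separated. It held 262 of the 1673 Saa3 UMIs of unnamed KO cells. Another unnamed cluster, with 9 KO cells, had KO Saa3 at 115 CPM from only 2 UMIs. A further 4 unnamed clusters also had more per UMI than the cell cycle cluster, with KO Saa3 at 257, 369.9, 380.1 and 511 CPM. Without cells called doublets, the first of these had 0 CPM, the second had no cells left, the third had 192 CPM and the last 40.6 CPM.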

How the results depend on the processing

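All values here are log2 ratios of KO to WT. In all cells (7.62 for Saa3, 3.31 for Hp and 3.98 for Lrg1), the mean over cells gave 2.78 for Hp and 3.05 for Lrg1, thinning to 1500 UMIs gave 7.34, 2.82 and 3.21, the UMIs of all genes as denominator gave 3.26 for Hp, and leaving out myeloid and unnamed clusters gave 4.01, 0.60 and 1.56. In neutrophil, monocyte and macrophage clusters together (6.96, 3.18 and 3.56), the mean over cells gave 1.84 for Hp and 2.15 for Lrg1, thinning gave 6.47, 1.87 and 2.33, and the UMIs of all genes gave 3.10 for Hp and 3.47 for Lrg1. Resolution 1.2 gave 6.55 for Saa3 and 3.41 for Lrg1, and clustering each library alone gave 3.45 for Hp and 3.49 for Lrg1. Added after seeing the data, leaving out alveolar macrophage-like cells gave 5.61, 1.77 and 2.40, and leaving out the granule-gene cluster gave 6.60, 2.51 and 2.84. All of these stayed above 0, but the genes were chosen as higher in KO myeloid cells, so the sign is no check on the result. The sums without myeloid and unnamed clusters still held KO T-, B- and NK-like cells, with 28, 13 and 27 Saa3 UMIs. Those cells were taken above as the level of free RNA. The mean over cells and thinning give each cell equal weight by construction. Lrg1 in epithelial-like cells went from 1.75 to -0.33 when each library was clustered alone, and Hp there (-0.49) ran from -1.39 to 0.13, below 0 in 7 of 10 alternatives.

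The granule-gene cluster was not formed at resolution 0.5, with acute-phase genes as variable genes or with each library alone, and no WT cluster was named classical monocyte-like in the last of these, where 461 KO cells took the name mature neutrophil-like. At resolution 1.2 the name classical monocyte-like covered 57 KO and 26 WT cells. A cluster of 2410 KO and 355 WT cells with classical monocyte markers stayed unnamed there, because its leading genes held more interstitial macrophage markers. No paired analysis was possible because each label had 1 library. Depth limits the WT Saa3 and Lrg1 levels in monocytes, which rest on 21 and 6 UMIs.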
